A study of Mus musculus with 6 samples.

Results

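The genes of cholesterol synthesis and of its transcriptional control by SREBP2 were examined in mouse liver RNA. The list held 27 genes, taken by symbol from the 24411 rows of the deposited table. It comprised 20 enzymes of the mevalonate and sterol pathways, 6 genes that make, process or restrain SREBP2, and the sterol carrier gene Stard4. All 27 had a row and all 27 passed the filter on low values, a mean of at least 0.5 TPM (transcript abundance scaled by length and by library total) over the 6 libraries, which left 12539 genes for testing.

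Whole liver libraries of 3 control samples, labelled WT, were compared with those of 3 samples of the genotype Alb-Cre+/+;Sox9 flox/flox (Sox9 cKO). In the latter, Cre recombinase under the albumin promoter removes floxed Sox9 in liver epithelial cells, which includes both hepatocytes and bile duct cells. C57BL/6J mice are among the strains the study names. The labels state no age, sex or feeding state. The controls are not labelled as carrying Cre or floxed alleles, so effects of Cre and of Sox9 loss cannot be told apart. Whether each library came from a separate animal is not stated, and p-values therefore speak only of the spread among these 6 libraries.

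Cells build cholesterol from acetyl-CoA through mevalonate, isoprenoid diphosphates, squalene and lanosterol. The transcription factor SREBP2, encoded by Srebf2, raises most genes of this route. It is made as an inactive precursor in the membrane of the endoplasmic reticulum, where SCAP escorts it to the Golgi apparatus when sterols are low and where INSIG proteins hold the complex back when sterols are high. In the Golgi apparatus the site-1 and site-2 proteases, encoded by Mbtps1 and Mbtps2, release the active fragment. Liver is a main site of this synthesis in mice and supplies sterol for bile acids, lipoproteins and bile.

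Sox9, the targeted gene, was at 1.69, 1.43 and 1.43 TPM across the controls against 0.19, 0.40 and 0.68 TPM across Sox9 cKO, so the groups did not overlap (log2 fold change -1.16, SE 0.25, limma adjusted p = 0.0323, and 0.0941 after median centring). All fold changes are differences of mean log2(TPM + 0.5), with positive values higher in Sox9 cKO, and this scale understates those of weakly expressed genes. The groups were unbalanced for sex-linked transcripts. Xist reached 114 and 123 TPM in the first and second control replicates and did not exceed 0.02 TPM in the other 4, and every difference below was measured across this imbalance. Over all 12539 tested genes the median log2 fold change was -0.24. Hepatocyte markers such as Alb were abundant in every library, and 10 hepatocyte markers together held 173069 to 175665 TPM across the controls against 126956 to 146536 TPM across Sox9 cKO. Alb made up most of this sum. Of the 10, 7 had negative log2 fold changes (70%, against 77.3% of all tested genes), and 0 of them passed as lower. The groups did not overlap for 4 that were lower (40%, against 33.7%), the most negative being Hpx (-0.86, limma adjusted p = 0.0634). Serpina1c rose (0.81, limma adjusted p = 0.0391), while Ass1 and Tat had positive values (0.43 and 0.24) that did not pass.

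Cholesterol genes were mostly lower in Sox9 cKO, but few passed the test. Of the 27 genes, 26 had a negative log2 fold change (96.3%, against 77.3% of all tested genes), with a median of -0.50. Only Srebf2 fell and only Insig2 rose at an adjusted p under 0.05, or 3.70% of the list in each direction. Among all tested genes 8.76% fell and 0.821% rose. The share of cholesterol genes that fell was thus not above that of all genes. At an unadjusted p under 0.05, 11 of the 27 were lower (40.7%, against 27.2% of all tested genes) and 1 was higher (3.70%, against 2.57%). Groups did not overlap for 13 genes that were lower (48.1%, against 33.7%) and for 1 that was higher (3.70%, against 3.79%). The log2 fold change was below the median of all tested genes for 22 of 27. After median centring 21 of 27 were negative with a median of -0.23, and after quantile normalization 22 with a median of -0.36, while the median of all genes became 0.04 and 0.03. These scalings also moved the share of lower genes among all called genes from 91.4% to 63.7% and 64.2%. Without Sox9 cKO replicate 3 the median of the 27 genes was -0.25, equal to that of all genes in that fit. Without Sox9 cKO replicate 1 or 2 it was -0.59 and -0.43, against -0.27 and -0.20 for all genes. Without any 1 control 0 of the 27 fell, and 5 fell without Sox9 cKO replicate 1. Of all 12539 tested genes 104 to 267 fell without 1 control, and 591 fell without Sox9 cKO replicate 1. Fewer cells of a type and less RNA per cell cannot be told apart in RNA of whole liver.

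**Figure D1:**
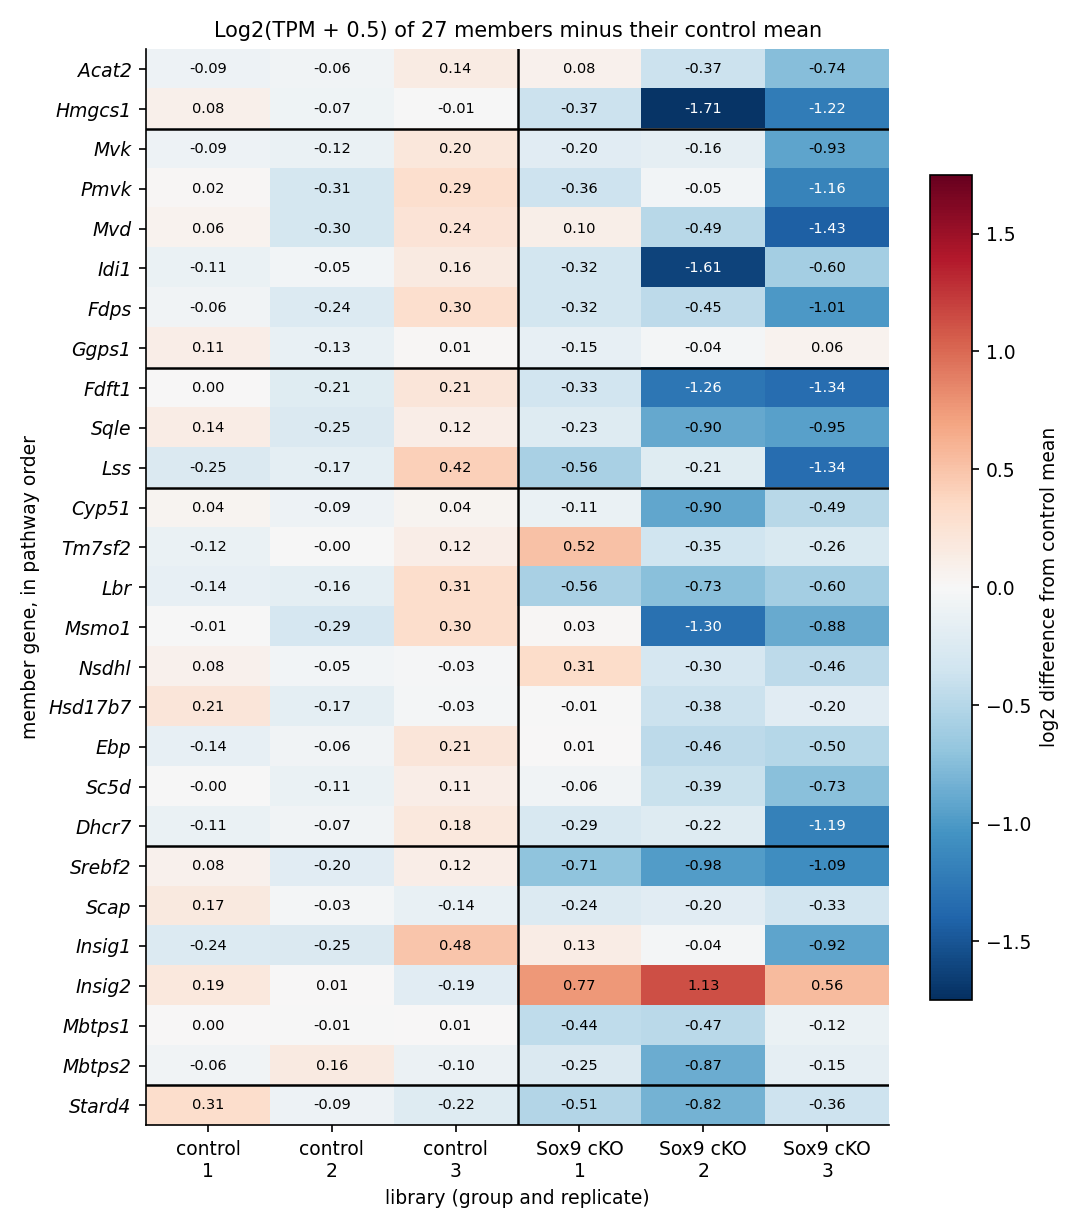
Difference of log2(TPM + 0.5) from the control mean for each of the 27 genes (rows, in pathway order, with lines between steps) in each of the 6 libraries (columns), with the value in each cell. Insig2 is the gene above the control mean in all 3 Sox9 cKO libraries, and most enzymes are lowest in Sox9 cKO replicates 2 and 3.

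Levels differed widely between the 27 genes. Because of the length scaling, levels can be set side by side. Sc5d, a sterol desaturase near the end of the route, was the most abundant in controls at 600 ± 46.7 TPM (SD, n = 3), followed by Fdps at 319 ± 61.8, Ebp at 256 ± 33.3, Insig1 at 229 ± 70.9 and Hmgcs1 at 200 ± 10.9 TPM. The control ranges of Fdps, Ebp and Insig1 overlapped, as did those of Insig1 and Hmgcs1. Mbtps2 at 3.07 ± 0.344, Ggps1 at 5.40 ± 0.486 and Lbr at 6.47 ± 1.34 TPM were the least abundant.

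The first step of the route was carried by a gene with a large difference and a gene with a small one. Hmgcs1 (chromosome 13, 119690379 to 119708260, mm10) encodes HMG-CoA synthase, the cytosolic enzyme that joins acetoacetyl-CoA with acetyl-CoA. Its level was 211, 189 and 198 TPM across the controls against 154, 60.6 and 85.0 TPM across Sox9 cKO. Every Sox9 cKO library was below every control, and 50.1% of the control mean was left. The log2 fold change of -1.10 (SE 0.30, limma adjusted p = 0.0581) was the most negative of the 27 and missed the threshold. Without Sox9 cKO replicate 1, the Sox9 cKO library nearest the controls, it was -1.47 and passed (adjusted p = 0.0164). After median centring it was -0.83 and did not pass (0.142). Acat2, the cytosolic thiolase that makes acetoacetyl-CoA, was at 88.5, 90.5 and 104 TPM across the controls against 99.2, 72.7 and 56.0 TPM across Sox9 cKO. These groups overlapped through Sox9 cKO replicate 1 (log2 fold change -0.35, 95% interval -0.82 to 0.13).

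Promoter windows were read from RefSeq (build GRCm38.p6), which had at least 1 window for 23 of the 27 genes and 29 windows in all (none for Fdft1, Sqle, Fdps and Stard4). Each window covers 250 bases before and 50 after a transcription start. Exact letters were searched on both strands for an SREBP site (TCACNCCAC), the full sterol regulatory element (a longer form that contains the former), the NF-Y box CCAAT and the Sp1 box GGGCGG. NF-Y and Sp1 are general factors known to act beside SREBP2. The SREBP site was in 1 of 29 windows, that of Hmgcs1, against 1.24% of all 32851 windows. Those 32851 windows belong to 27025 genes and were not limited to genes tested here. The full element was in 0 of 29 windows, against 0.0913% of all. CCAAT was in 65.5% of the 29 windows, against 37.4% of all, and GGGCGG in 79.3%, against 35.7%. These matches are descriptions of sequence, not sites shown to be bound, and a window without a match says only that these letters are not in it. The Hmgcs1 window is printed because it is the one that holds the SREBP site and belongs to the most negative log2 fold change. Capitals mark every match on either strand. The SREBP site starts 137 bases before the transcription start, between reversed NF-Y boxes (ATTGG) that start 176 and 45 bases before it.
Hmgcs1 start (chr13:119690101-119690400, + strand): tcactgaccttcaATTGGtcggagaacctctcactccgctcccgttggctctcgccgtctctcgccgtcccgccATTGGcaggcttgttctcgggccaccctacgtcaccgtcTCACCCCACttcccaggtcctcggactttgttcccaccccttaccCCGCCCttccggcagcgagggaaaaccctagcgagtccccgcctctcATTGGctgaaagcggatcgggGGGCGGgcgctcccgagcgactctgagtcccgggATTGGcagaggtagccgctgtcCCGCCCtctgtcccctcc

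Genes between mevalonate and the isoprenoid diphosphates had 0 of 6 members past the threshold. Idi1, which interconverts the pair of isoprene units, was at 122, 127 and 147 TPM across the controls against 105, 42.6 and 86.5 TPM across Sox9 cKO, without overlap (log2 fold change -0.85, SE 0.31, limma adjusted p = 0.115). Fdps makes farnesyl diphosphate, the last intermediate shared by sterols and other isoprenoids. It was at 302, 267 and 387 TPM across the controls against 252, 230 and 156 TPM across Sox9 cKO, again without overlap (-0.59, adjusted p = 0.118). The mevalonate kinase gene Mvk also had separate groups, with 20.3 to 25.5 TPM across the controls against 11.3 to 19.7 TPM across Sox9 cKO (-0.43, adjusted p = 0.236). Pmvk and Mvd, which encode the next kinase and the decarboxylase, had log2 fold changes of -0.52 and -0.61 with overlapping groups. Both were lowest in Sox9 cKO replicate 3, at 41.9 and 5.82 TPM, while Mvd in Sox9 cKO replicate 1 was at 17.7 TPM, inside the control range of 13.3 to 19.6 TPM.

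Ggps1 had the smallest difference of these 6 genes. It encodes the synthase of geranylgeranyl diphosphate, which serves protein prenylation and not sterols. Its values were 5.86, 4.89 and 5.44 TPM across the controls against 4.82, 5.22 and 5.63 TPM across Sox9 cKO. The log2 fold change was -0.04, with a 95% interval of -0.39 to 0.30, so a difference of the size estimated for Idi1 or Fdps lies outside this interval. The sign of this small value turned under median centring (0.23), quantile normalization (0.31) and rescaling without the 50 most abundant genes (0.01).

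The 3 genes from squalene to lanosterol had log2 fold changes of -0.98 to -0.69, and 0 passed the threshold. Fdft1, squalene synthase, is the first enzyme committed to sterols. It was at 71.0, 61.2 and 81.7 TPM across the controls against 56.1, 29.3 and 27.7 TPM across Sox9 cKO. The groups did not overlap, and 52.9% of the control mean remained (log2 fold change -0.98, SE 0.27, limma adjusted p = 0.0589). Sqle, the oxygen-dependent squalene epoxidase, was at 37.3, 28.4 and 36.9 TPM across the controls against 28.8, 18.0 and 17.3 TPM across Sox9 cKO. Its Sox9 cKO replicate 1 lay just above the lowest control (-0.69, SE 0.22, adjusted p = 0.0822). Lss, which folds the epoxide into lanosterol, was at 20.5, 21.6 and 32.8 TPM across the controls against 16.3, 21.0 and 9.34 TPM across Sox9 cKO (-0.70, adjusted p = 0.167). Fdft1 (-1.30, adjusted p = 0.0186) and Sqle (-0.92, adjusted p = 0.0378) passed as lower without Sox9 cKO replicate 1.

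**Figure D2:**
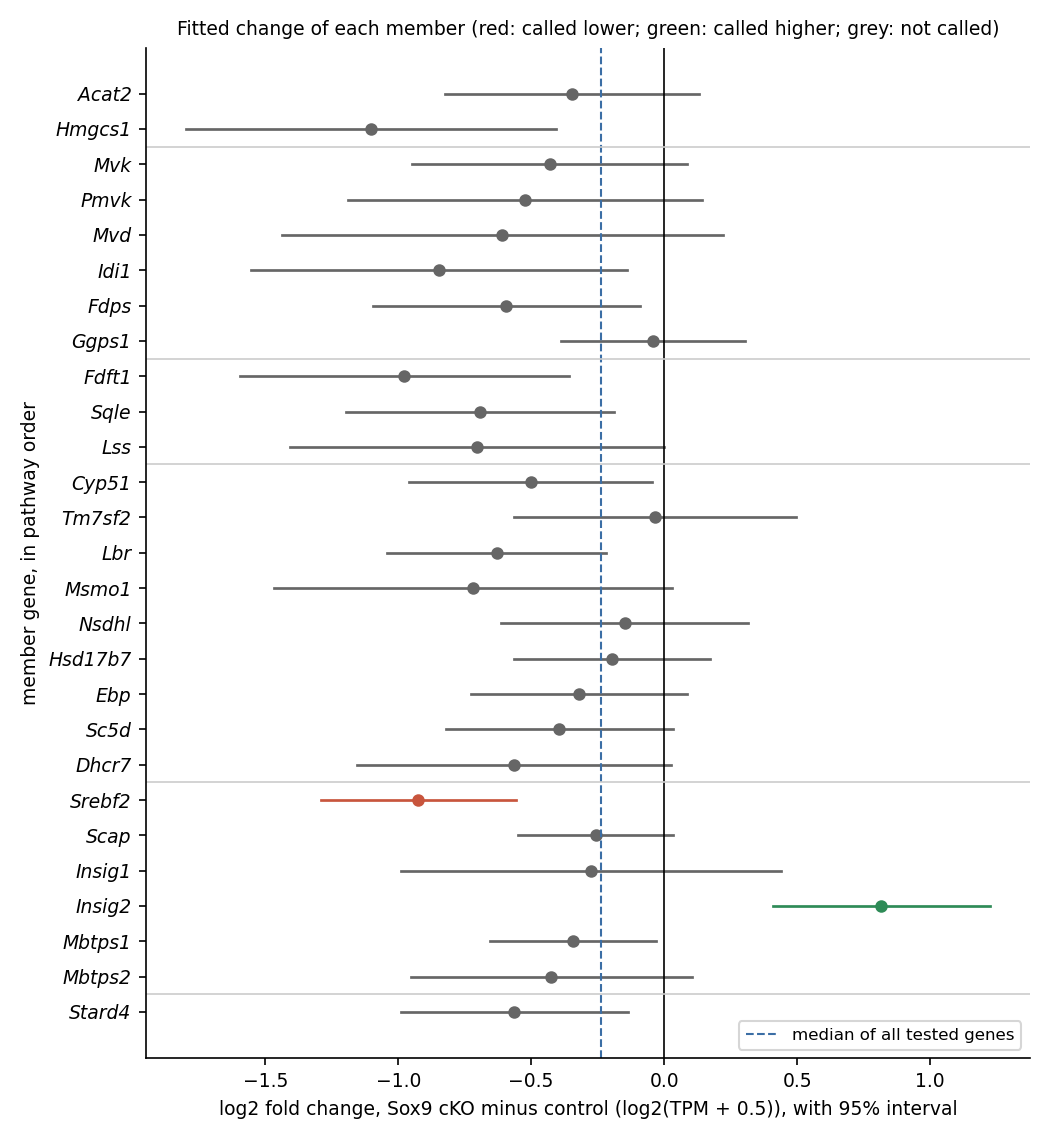
Fitted log2 fold change of each of the 27 genes (x axis, Sox9 cKO minus control, log2(TPM + 0.5)) with its unadjusted 95% interval, in pathway order (y axis). The dashed line is the median of all 12539 tested genes, -0.24. Srebf2 (red, -0.92) and Insig2 (green, 0.82) are the called genes.

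The 9 genes from lanosterol to cholesterol had smaller log2 fold changes, with a median of -0.39, and 0 passed. Cyp51, the lanosterol demethylase, was at 60.9, 55.7 and 61.0 TPM across the controls against 54.7, 31.4 and 42.0 TPM across Sox9 cKO, without overlap (-0.50, SE 0.20, limma adjusted p = 0.136). Dhcr7, a reductase of the final step to cholesterol, was at 52.4 to 64.1 TPM across the controls against 46.3, 48.4 and 24.5 TPM across Sox9 cKO (-0.57, adjusted p = 0.183). Msmo1, the sterol methyl oxidase, was at 146, 120 and 181 TPM across the controls against 149, 59.3 and 79.2 TPM across Sox9 cKO (-0.72, adjusted p = 0.182). In Sox9 cKO replicate 1 Msmo1 was thus within the control range, and without that library it passed as lower (-1.09, adjusted p = 0.0445). After median centring Msmo1 was at -0.44 and did not pass (0.428). Nsdhl and Hsd17b7, which act after Msmo1 in removing methyl groups, had log2 fold changes of -0.15 and -0.19, which turned to 0.13 and 0.08 after median centring. Ebp, a sterol isomerase, and Sc5d had values of -0.32 and -0.39, with Sox9 cKO replicate 1 inside the control range for both. Relative to the median of all tested genes, the differences of Nsdhl and Hsd17b7 were less negative and those of Ebp and Sc5d more negative.

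Lbr and Tm7sf2 encode enzymes for the same sterol reduction, Lbr being also a receptor for lamins in the inner nuclear membrane. Lbr was at 5.75, 5.65 and 8.02 TPM across the controls against 4.17, 3.66 and 4.05 TPM across Sox9 cKO, so every Sox9 cKO library was below every control (log2 fold change -0.63, SE 0.18, limma adjusted p = 0.0633). Tm7sf2 was at 117, 127 and 138 TPM across the controls against 182, 99.1 and 105 TPM across Sox9 cKO, with 1 library above all controls and 2 below them (-0.03, 95% interval -0.57 to 0.50, turning to 0.24 after median centring). The ratio of Lbr to Tm7sf2 was 0.0446 to 0.0581 in controls and 0.0229 to 0.0384 in Sox9 cKO, without overlap. An exact two-sided permutation test of the log2 ratio gave p = 0.1, the lower limit for groups of 3, and 0.15 adjusted over 3 ratios tested.

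Control of the pathway held the genes that passed the test. Srebf2 (chromosome 15, 82147181 to 82205379) was at 20.7, 17.0 and 21.2 TPM across the controls against 11.8, 9.69 and 8.92 TPM across Sox9 cKO. All 3 Sox9 cKO libraries were well below the lowest control, and 51.5% of the control mean remained. Srebf2 fell by 0.92 on the log2 scale (SE 0.16, limma adjusted p = 0.0180, lower in 3 of 3 libraries). The call ended after median centring (-0.65, adjusted p = 0.0686), after quantile normalization (-0.70, 0.0595) and without control replicate 1, 2 or 3 (-0.88, -1.02 and -0.87, adjusted p from 0.0592 to 0.0826). With a term for the sex marker Xist the value was -1.04 and did not pass (adjusted p = 0.0993). Only control replicates 1 and 2 had Xist, so that term leaves control replicate 3 as the sole control in the contrast. The fit against control replicate 3 alone therefore gives the same -1.04 and is not a separate check.

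Insig2 (chromosome 1, 121304353 to 121332589) moved the other way. It encodes a membrane protein that retains the SCAP complex, and in mouse liver it is transcribed from more than 1 start, one of them liver specific. Its level was 82.4, 72.7 and 63.2 TPM across the controls against 123, 158 and 107 TPM across Sox9 cKO. Every Sox9 cKO library was above every control, at 178% of the control mean. Insig2 rose by 0.82 on the log2 scale (SE 0.18, limma adjusted p = 0.0323, higher in 3 of 3 libraries), a value above that of 98.5% of tested genes. After median centring it was 1.09 and still passed. Its call ended with the Xist term (1.01, adjusted p = 0.119), which again sets control replicate 3 alone against Sox9 cKO. It also ended without control replicate 1, 2 or 3 (0.91, 0.82 and 0.72, adjusted p from 0.0840 to 0.114) and without Sox9 cKO replicate 1 (0.84, 0.0682).

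Windows at the starts of both called genes are printed so that they can be set beside that of Hmgcs1, with capitals again marking matches on either strand. The Srebf2 window had 1 NF-Y box and 5 Sp1 boxes. For Insig2 RefSeq had 3 windows, of which the outermost are shown. The upstream start had 3 NF-Y boxes and 0 Sp1 boxes, and each inner start had 0 NF-Y boxes and 1 Sp1 box. The table holds 1 value per gene, so the transcripts from these starts were not separated.
Srebf2 start (chr15:82147019-82147318, + strand): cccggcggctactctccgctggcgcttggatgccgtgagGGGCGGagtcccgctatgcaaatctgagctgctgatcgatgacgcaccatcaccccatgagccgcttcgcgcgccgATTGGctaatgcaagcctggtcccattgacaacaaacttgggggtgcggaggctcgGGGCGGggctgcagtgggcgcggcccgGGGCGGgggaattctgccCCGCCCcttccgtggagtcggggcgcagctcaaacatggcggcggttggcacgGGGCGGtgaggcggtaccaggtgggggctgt
Insig2 upstream start (chr1:121332540-121332839, - strand): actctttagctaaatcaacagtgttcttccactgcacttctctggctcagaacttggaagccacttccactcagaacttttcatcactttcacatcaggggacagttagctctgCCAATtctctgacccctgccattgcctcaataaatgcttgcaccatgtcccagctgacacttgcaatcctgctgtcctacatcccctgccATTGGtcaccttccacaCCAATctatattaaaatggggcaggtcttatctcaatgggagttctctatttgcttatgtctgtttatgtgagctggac
Insig2 inner start (chr1:121327629-121327928, - strand): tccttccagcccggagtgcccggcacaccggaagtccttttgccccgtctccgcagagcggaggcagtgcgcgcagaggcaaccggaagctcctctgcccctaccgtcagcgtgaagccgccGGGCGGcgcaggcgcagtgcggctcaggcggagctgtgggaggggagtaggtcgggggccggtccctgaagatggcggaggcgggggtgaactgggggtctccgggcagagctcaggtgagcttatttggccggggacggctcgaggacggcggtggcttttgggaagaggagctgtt

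Insig1, the paralogue of Insig2 and itself a target of SREBP2, was at 189, 187 and 311 TPM across the controls against 244, 217 and 117 TPM across Sox9 cKO. Sox9 cKO replicates 1 and 2 were within the control range and replicate 3 was below it (log2 fold change -0.28, 95% interval -0.99 to 0.44). Insig1 transcripts were 2.30, 2.58 and 4.92 times those of Insig2 in controls and 1.98, 1.37 and 1.10 times in Sox9 cKO. This ratio did not overlap between the groups (difference of log2 means -1.10, exact two-sided permutation p = 0.1, the smallest possible, and 0.15 adjusted over 3 ratios).

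**Figure D3:**
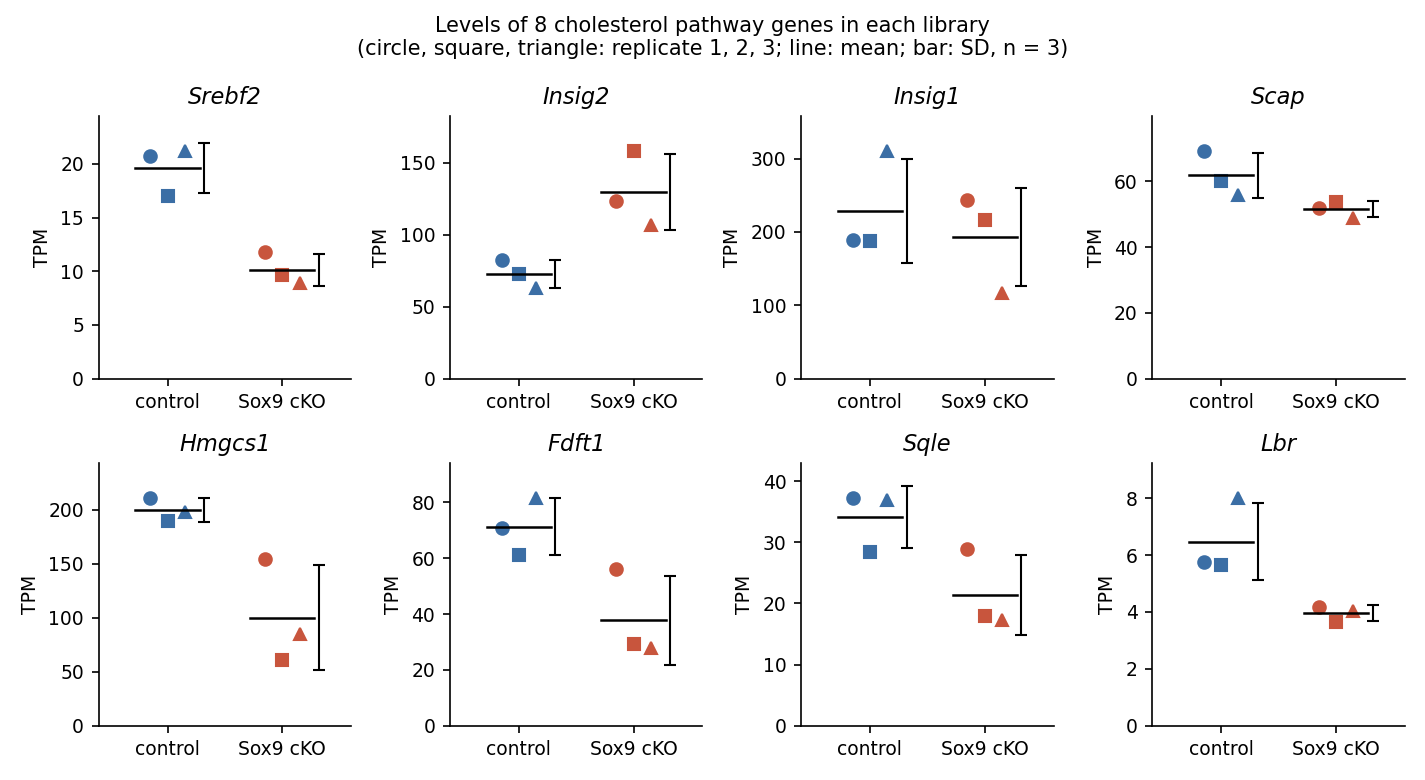
TPM (y axis, starting at 0) of 8 genes in each control (blue) and Sox9 cKO (red) library, with group means (lines) and SDs (bars, n = 3). Srebf2 and Lbr are lower and Insig2 higher in every Sox9 cKO library than in any control, and for Hmgcs1, Fdft1 and Sqle Sox9 cKO replicate 1 is the nearest to the controls.

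Scap and the protease genes had small differences and did not pass. Scap was at 69.4, 60.2 and 56.0 TPM across the controls against 52.0, 53.6 and 48.8 TPM across Sox9 cKO (log2 fold change -0.26, SE 0.13, limma adjusted p = 0.214), which was close to the median of all tested genes and became 0.02 after median centring. Mbtps1, the site-1 protease, was at 28.2 to 28.5 TPM in the 3 controls and at 20.8, 20.4 and 26.0 TPM in Sox9 cKO (-0.34, adjusted p = 0.138). Mbtps2, the site-2 protease, was at 2.82 to 3.46 TPM across the controls against 1.45 to 2.70 TPM across Sox9 cKO (-0.42, adjusted p = 0.250, turning to 0.04 after quantile normalization). All 3 genes had groups that did not overlap, with Sox9 cKO lower, as did 33.7% of all tested genes. Stard4, which carries sterol between membranes and is a target of SREBP2, was at 54.2, 40.8 and 37.3 TPM across the controls against 30.5, 24.4 and 33.9 TPM across Sox9 cKO, also without overlap (-0.56, SE 0.18, adjusted p = 0.0912).

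The 3 Sox9 cKO libraries differed from each other in these genes. The median log2 difference of the 27 genes from their control mean was -0.23 in Sox9 cKO replicate 1, -0.45 in replicate 2 and -0.73 in replicate 3. Over all tested genes the same medians were -0.19, -0.33 and -0.22. Of the 27 genes, 16, 22 and 25 were below every control in Sox9 cKO replicates 1, 2 and 3, while 54.4%, 61.3% and 57.5% of all tested genes were. Sox9 cKO replicate 3 had the lowest value of the 6 libraries for 15 of the 27 genes and replicate 2 for 10. Control replicate 3, the control without Xist, had the highest value for 17.

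For some genes the lowest library was replicate 2, for others replicate 3. Idi1 differed from its control mean by -1.61 in replicate 2 and -0.60 in replicate 3, and Cyp51 by -0.90 and -0.49. The reverse held for Lss (-0.21 and -1.34), Pmvk (-0.05 and -1.16), Mvk (-0.16 and -0.93), Dhcr7 (-0.22 and -1.19) and Insig1 (-0.04 and -0.92). Srebf2 was low in all of them, at -0.71, -0.98 and -1.09 in the 3 libraries.

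Summed by step, the enzymes held 2279, 2127 and 2618 TPM across the controls against 2179, 1542 and 1353 TPM across Sox9 cKO, or 72.2% of the control mean. Sox9 cKO replicate 1 was within the control range of this sum. The acetyl-CoA to mevalonate genes were at 59.8% of the control mean, the mevalonate to isoprenoid genes at 66.6%, the squalene to lanosterol genes at 57.2% and the lanosterol to cholesterol genes at 79.0%. In the first 3 of these steps all Sox9 cKO sums were below all controls. The SREBP2 control genes summed to 98.5%, a sum in which Insig1 and Insig2 are the most abundant genes.

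**Figure D4:**
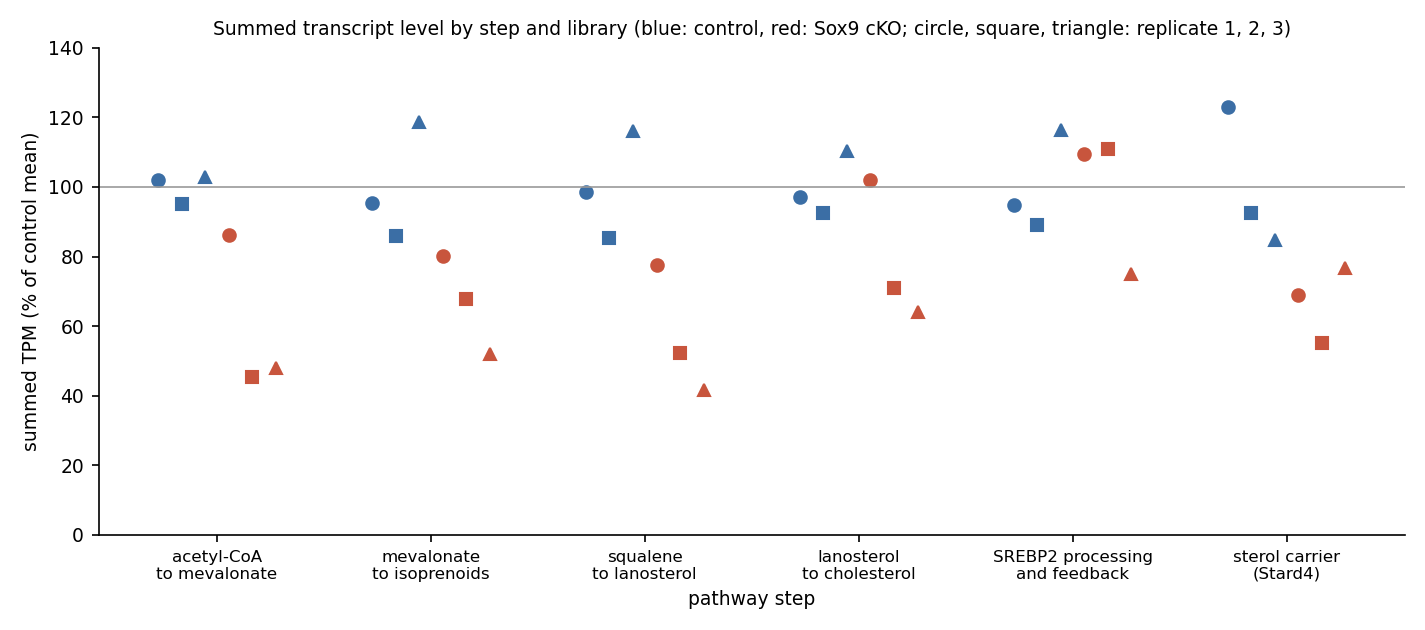
Summed TPM of the genes of each pathway step (x axis) as a percentage of the control mean of that step (y axis, starting at 0) in each control (blue) and Sox9 cKO (red) library. In the first 3 steps every Sox9 cKO library is below every control, and Sox9 cKO replicate 1 is the highest of the Sox9 cKO libraries.

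Genes next to the pathway were described by 6 further lists, chosen with earlier results of these data known. Of 14 tested genes for turnover and trafficking of SREBP proteins 0 passed, with a median log2 fold change of -0.06. Erlin2 (-0.51, limma adjusted p = 0.101) and Erlin1 (-0.33, 0.132), components of a sterol-regulated complex of the endoplasmic reticulum, had the smallest p-values, followed by Sar1b (0.26), a GTPase of vesicle transport, and the ubiquitin ligase gene Rnf139 (-0.21). Of 13 genes of isoprenoid side branches 0 passed, with a median of -0.09. The smallest p belonged to Pggt1b, a subunit of the geranylgeranyl transferase (-0.57, adjusted p = 0.164). Next by p were Zmpste24 (-0.11), Nus1 (-0.13) and Pdss1 (-0.17), these 3 turning positive after median centring (0.16, 0.15 and 0.10), as did Rnf139 (0.06). All but Pggt1b were less negative than the median of all tested genes.

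Other genes known as targets of SREBP2 had differences in both directions. Of 10 tested, 0 passed, 6 had negative log2 fold changes and the median was -0.12. Fads2, a fatty acid desaturase, was at 645, 498 and 590 TPM across the controls against 405, 449 and 391 TPM across Sox9 cKO (-0.47, limma adjusted p = 0.0769). Tmem97, a sterol-responsive membrane protein gene, had a value of -0.49 (adjusted p = 0.134) and Fads1 of -0.44 (0.142). Aacs, a cytosolic acetoacetyl-CoA synthetase, had a positive value of 0.89 (0.197) with overlapping groups.

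Among 10 genes of LXR, the receptor that senses oxysterols, and of sterol export, 1 fell (10%, against 8.76% of all tested genes) and the median was -0.31. Abcg1, a sterol exporter, was at 3.60, 3.84 and 4.13 TPM across the controls against 1.70, 1.35 and 1.54 TPM across Sox9 cKO, without overlap (log2 fold change -1.10, SE 0.17, limma adjusted p = 0.0123). Abca1 (-0.35), Mylip (-0.56) and Lpcat3 (-0.42) did not pass. Their groups did not overlap either, as for 4 of the 10 genes in all (40%, against 33.7% of all tested genes). Abcg1 kept its call after median centring but not after quantile normalization (-0.64, adjusted p = 0.0675) or without control replicate 1, 2 or 3 (adjusted p from 0.0503 to 0.0673), nor with the Xist term (-1.19, 0.0854).

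Of 15 genes of sterol storage and transport 3 fell (20%, against 8.76% of all tested genes) and 1 rose (6.67%, against 0.821%), with a median of -0.36. Scp2, which encodes a sterol carrier protein and a peroxisomal thiolase, was at 1290, 1426 and 1203 TPM across the controls against 2148, 2851 and 3223 TPM across Sox9 cKO (log2 fold change 1.05, SE 0.19, limma adjusted p = 0.0202). Npc2, a lysosomal cholesterol-binding protein, was at 53.3, 51.5 and 56.0 TPM across the controls against 36.3, 31.8 and 30.6 TPM across Sox9 cKO (-0.70, SE 0.12, adjusted p = 0.0183). Neither gene had overlapping groups. Soat2, which esterifies cholesterol inside liver cells, was at 51.8, 42.0 and 40.3 TPM across the controls against 31.2, 29.5 and 26.0 TPM across Sox9 cKO (-0.61, adjusted p = 0.0389). Lcat, whose enzyme does so in plasma, was at 501, 520 and 511 TPM across the controls against 350, 310 and 394 TPM across Sox9 cKO (-0.55, 0.0427). The Sox9 cKO libraries were below all controls for both. The calls of Soat2 and Lcat ended in 13 of 18 other settings each, among them the omission of any 1 control. Those of Scp2 and Npc2 ended in 6 of 18 each, again without any 1 control and with the Xist term. After median centring Npc2 (-0.42, limma adjusted p = 0.107), Soat2 (-0.34, 0.218) and Lcat (-0.27, 0.254) did not pass. Scp2 still passed after median centring (1.33, 0.0193) but not after quantile normalization (0.95, 0.0522).

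Genes of the fatty acid branch, driven by SREBP1, differed in direction between the Sox9 cKO libraries. Srebf1 was at 138, 162 and 110 TPM across the controls against 131, 235 and 82.4 TPM across Sox9 cKO (log2 fold change 0.01, 95% interval -0.79 to 0.82). Of 12 tested genes of this list 0 passed, 8 were positive and the median was 0.20. The direction was not shared by the 3 Sox9 cKO libraries, whose median log2 differences from the control mean were 0.40, 1.07 and -0.70. In replicate 3, 7 of the 12 genes were below every control, a share close to the 57.5% of all tested genes. Thrsp, a lipogenic regulator, was at 711, 733 and 541 TPM across the controls against 2334, 4182 and 973 TPM across Sox9 cKO (1.69, SE 0.47, limma adjusted p = 0.0596). Me1, the malic enzyme that supplies NADPH, had a value of 1.57 (0.0735), Elovl6 of 0.78 (0.243) and Acacb of 0.46. The ratio of Srebf2 to Srebf1 overlapped between groups, at 0.104 to 0.194 in controls and 0.0413 to 0.108 in Sox9 cKO (exact two-sided permutation p = 0.2, and 0.2 adjusted over 3 ratios).

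**Figure D5:**
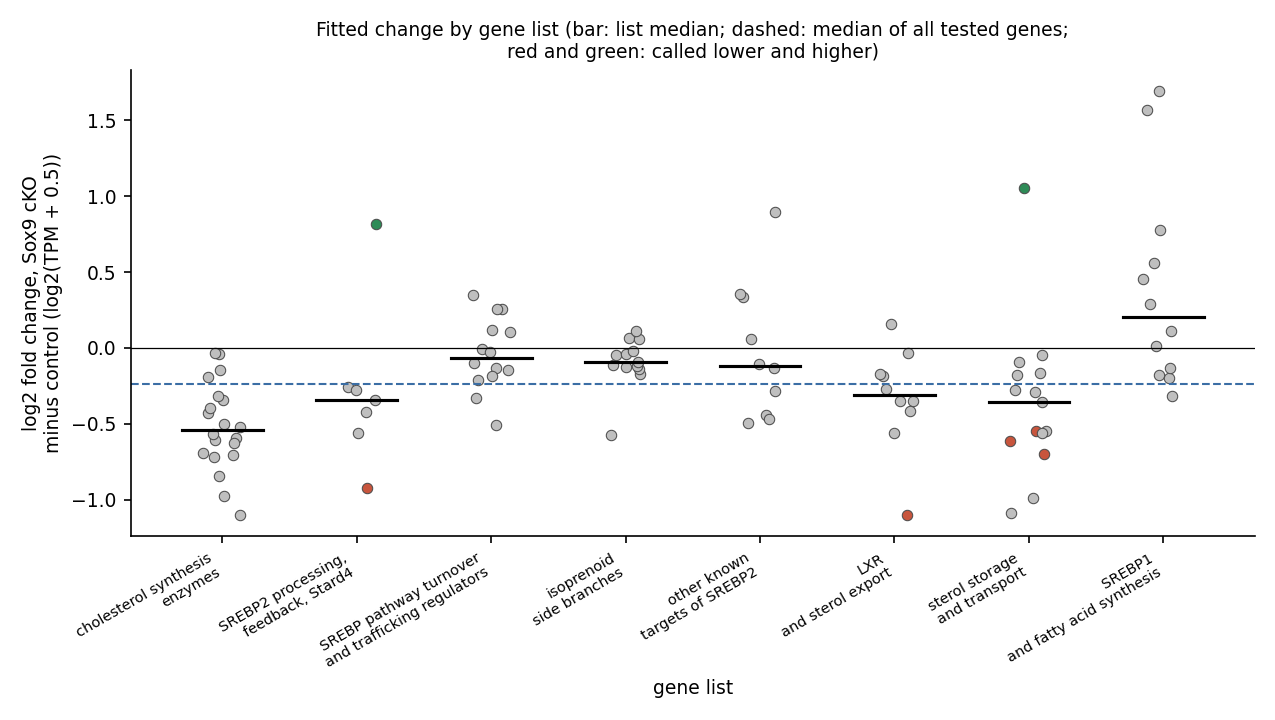
Fitted log2 fold changes (y axis, Sox9 cKO minus control, log2(TPM + 0.5)) of the tested genes in each list (x axis), 1 point per gene, with list medians as bars and the median of all tested genes, -0.24, as the dashed line. The synthesis enzymes have the most negative median of the 8 groups shown, -0.54, and the SREBP1 list has a positive one, 0.20.

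Markers of other liver cells were lower in the same libraries. Of 10 Kupffer cell and macrophage markers 7 fell, and their summed level was 440 to 758 TPM across the controls against 145 to 326 TPM across Sox9 cKO. Of 10 stellate cell and fibroblast markers 8 fell, with sums of 369 to 402 and 113 to 215 TPM. Of 10 endothelial markers 3 fell, with sums of 211 to 242 and 130 to 184 TPM, and of 7 tested lymphocyte markers 2 fell, with sums over these 7 of 17.3 to 21.7 and 4.77 to 11.3 TPM. Of 9 tested bile duct markers 3 fell, namely Sox9, Tspan8 and Elf3, with sums of 76.7 to 128 and 51.1 to 72.1 TPM, and Cftr did not exceed 0.03 TPM anywhere. Among all tested genes 8.76% fell. After median centring the numbers that fell became 3 of 10 macrophage, 4 of 10 stellate, 0 of 10 endothelial, 0 of 7 lymphocyte and 2 of 9 bile duct markers. In that fit 256 of all 12539 tested genes fell. The part of these cell types in the differences of Srebf2, Abcg1, Npc2 and the other sterol genes was not tested. Sox9 cKO replicate 2 had the lowest sums of macrophage, stellate, endothelial and lymphocyte markers. Of the 27 cholesterol genes, 10 were lowest in replicate 2 and 15 in replicate 3.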

How the data were processed

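The authors deposited 1 table of TPM with 24411 rows and 1 column per library. According to the design text, and per the submitters' processing notes, reads were trimmed with Trim Galore 0.5.0 and cutadapt 1.16, aligned to mm10 with STAR 2.6.0a and quantified with RSEM 1.3.1. The annotation and the strand setting were not given in the sources. Hence genes that overlap another gene on the opposite strand are uncertain. TPM keeps no sequencing depth, which is therefore unknown, and no counting interval was computed. A large change in abundant genes shifts all others.

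Each column was assigned by its header number, which is the library number in the sample descriptions. Genes averaging 0.5 TPM or more were fitted as log2(TPM + 0.5) on group alone, using limma 3.58.1 under R 4.3.3 with a variance trend, two-sided tests and Benjamini-Hochberg adjustment over 12539 genes at a threshold of 0.05. Intervals of 95% are unadjusted. The members and lists were chosen with earlier results of these data known. All 27 genes, Sox9, Srebf1 and the 4 genes with the smallest p in each other list were named, with markers beside them. Ratios of gene pairs, chosen after values were seen, were compared by exact permutation (scipy 1.17.1). Gene positions came from GENCODE M21 (GRCm38, the assembly of mm10). The fit was tested on simulated data. The 18 alternatives covered pseudocount, filter, scaling, variance model, array weights, replicate block, a term for Xist above 10 TPM, and libraries left out. Figures used matplotlib 3.10.9.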

Additional observations from a re-analysis of the deposited data

How the results depend on the processing

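Of 486 values of the 27 genes under 18 alternatives, 444 kept their direction and side of the threshold, 13 lost a call, 8 gained one and 21 changed sign. For 26 other named genes these numbers were 393, 54, 10 and 10 of 467. The number of the 27 that fell, 1 as reported, was 0 after median centring, quantile normalization, with the Xist term and without control replicates 1 and 2, 4 with array weights, and 0 to 5 with 1 library left out. The number that rose, also 1, was 0 with the Xist term and without control replicates 1 and 2, and 0 to 1 with 1 library left out.

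Over all genes 1099 fell. This became 716 with a filter at 2 TPM, 256 after median centring, 725 rescaled without the 50 most abundant genes, 215 after quantile normalization, 2312 with array weights, 49 with the Xist term, 18 without control replicates 1 and 2, and 104 to 1003 with 1 library left out. The 103 that rose became 252 with array weights, 21 with the Xist term, 9 without control replicates 1 and 2, and 32 to 107 with 1 library left out, and they were 146 after median centring and 120 after quantile normalization. With replicate number as a block, 2 of the 27 fell (Srebf2 and Hmgcs1, adjusted p = 0.0495) and 563 genes fell in all. The deviations of same-numbered libraries from their group means, taken across tested genes, correlated at -0.0446, 0.00354 and -0.0269. The labels state no pairing, and these values cannot decide whether the numbers pair the samples.

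Signs changed as follows. Median centring gave Ggps1 0.233, Tm7sf2 0.241, Nsdhl 0.126, Hsd17b7 0.0802, Scap 0.0177, Rnf139 0.0637, Pdss1 0.0998, Nus1 0.148 and Zmpste24 0.164. Quantile normalization gave Ggps1 0.31, Tm7sf2 0.0316, Hsd17b7 0.0191, Mbtps2 0.0435, Pdss1 0.225, Nus1 0.0709 and Zmpste24 0.032. Rescaling gave Ggps1 0.0108 and Tm7sf2 0.023. Array weights gave Tm7sf2 0.313, Nsdhl 0.132, Insig1 0.0749 and Srebf1 -0.183. With 1 library left out, the ranges that crossed 0 were Ggps1 -0.105 to 0.0141, Tm7sf2 -0.31 to 0.126, Nsdhl -0.381 to 0.0087, Insig1 -0.48 to 0.0473 and Srebf1 -0.377 to 0.375. The causes were not tested. TPM keeps no depth, so what depth limits is unknown. The fit without control replicates 1 and 2 assumes that the lone control varies like the other group. The fit with the Xist term gives the same fold changes, so these settings are not separate checks.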
